A study of Mus musculus with 8 samples.

Results

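The genes described here encode enzymes that oxidise methylated cytosine, proteins that read it, and a nuclease that works in its replacement. They are the TET dioxygenases Tet1, Tet2 and Tet3, the methyl-CpG-binding domain genes Mbd1, Mbd2, Mbd3 and Mbd4, and the abasic site nuclease gene Apex1. They were taken by gene symbol from the platform annotation, as every probe set (a group of probes for 1 transcript region) that carries exactly 1 of these 8 names. This gave 21 probe sets out of 45101 and 8 genes out of 18193. The signals come from 1-colour arrays of wild-type whole mouse embryos of the cross B6D2F1, 4 arrays of the 8-cell stage (embryonic day 2.5, 66 h after the ovulation hormone hCG) and 4 of the blastocyst (day 4.5, 120 h). All embryos had been grown in vitro in KSOM medium from the 1-cell stage. Nothing in the labels states that the 4 arrays of a stage are separate pools of embryos, so the p-values reflect sample-to-sample spread that could be technical.

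Methylated cytosine in CpG pairs marks silenced DNA, and most of this mark is lost and rebuilt between fertilisation and implantation. TET enzymes use iron, oxygen and oxoglutarate to oxidise the methyl group step by step, after which the base is diluted by replication or cut out and replaced through base excision repair. Tet3 is known as the egg's TET enzyme, which acts in the zygote, and Tet1 and Tet2 are known from the inner cell mass and from embryonic stem cells. MBD proteins bind methylated CpG pairs and bring in chromatin enzymes. MBD2 and MBD3 are alternative subunits of the NuRD complex, a remodeller with histone deacetylases, and MBD3 itself binds methylated DNA only weakly. MBD1 works with the histone methyltransferase SETDB1, and MBD4 is a DNA glycosylase that removes thymine or uracil mispaired with guanine.

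The stretches before the start sites of the TET genes and Apex1 are shown for their CpG pairs, the kind of site at which the mark can lie. Whether these pairs are methylated was not measured here. They are the 250 bases upstream of the start that RefSeq's GRCm38.p6 table gives, 5′ to 3′ on the gene's strand. In the TET sequences capitals mark each CG, and in Apex1 they mark the E-box letters CACGTG.

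Tet1, chr10:62887325-62887574, minus strand: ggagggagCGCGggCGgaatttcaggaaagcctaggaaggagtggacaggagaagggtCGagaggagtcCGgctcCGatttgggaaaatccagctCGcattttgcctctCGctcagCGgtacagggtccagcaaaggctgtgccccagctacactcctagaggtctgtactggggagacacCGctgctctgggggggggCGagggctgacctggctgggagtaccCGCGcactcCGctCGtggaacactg
Tet2, chr3:133544391-133544640, minus strand: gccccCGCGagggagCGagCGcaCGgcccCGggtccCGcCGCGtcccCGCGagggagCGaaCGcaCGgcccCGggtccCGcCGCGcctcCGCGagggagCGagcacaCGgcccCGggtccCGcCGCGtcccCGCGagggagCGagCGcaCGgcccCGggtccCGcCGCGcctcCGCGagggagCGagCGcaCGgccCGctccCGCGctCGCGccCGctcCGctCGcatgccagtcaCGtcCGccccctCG
Tet3, chr6:83441679-83441928, minus strand: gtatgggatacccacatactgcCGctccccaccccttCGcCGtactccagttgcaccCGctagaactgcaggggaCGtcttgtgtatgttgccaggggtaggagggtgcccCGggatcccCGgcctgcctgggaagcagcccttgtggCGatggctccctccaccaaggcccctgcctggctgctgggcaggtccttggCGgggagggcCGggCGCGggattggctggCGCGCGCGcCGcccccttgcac
Apex1, chr14:50924699-50924948, plus strand: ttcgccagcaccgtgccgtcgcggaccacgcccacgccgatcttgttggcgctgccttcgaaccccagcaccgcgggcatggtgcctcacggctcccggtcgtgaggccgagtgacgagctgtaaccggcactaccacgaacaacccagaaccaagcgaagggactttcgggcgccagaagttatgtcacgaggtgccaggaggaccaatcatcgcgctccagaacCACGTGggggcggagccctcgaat

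The Tet2 stretch held 51 CG pairs, and 0.067% of the 32851 promoters in the table held as many over the same length, against a median of 6. Tet1 held 15 (27.3% of promoters held as many), Tet3 17 (23.5%) and Apex1 28 (7.61%). The Tet2 stretch also holds the 14 letters CCGCGAGGGAGCGA 5 times (searched on both strands), the longest word it holds that often, looked for after the sequence was seen. Over the same length 0.003% of promoters hold this word at all, Tet2 included. Apex1 held 1 CACGTG (the same on both strands), and 6.02% of promoters hold at least 1. The AP-2 letters GCCNNNGGC (the same on both strands), searched because the series is about the AP-2 factor Tfap2c, were in none of these 4 stretches, and 13.7% of promoters hold them. Such matches describe the letters and not binding. The starts used in the table lie inside the outer end of the gene, by 145 bases for Tet1, 746 for Tet2 and 15530 for Tet3. The Tet2 and Tet3 stretches therefore lie wholly within the outer ends of their genes.

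Signals are on the deposited linear scale, on which each array has close to the same trimmed mean, so a rise or fall is relative to the rest of the array and not an amount per embryo. The 8-cell values carry fewer decimals than the blastocyst values. Any difference in how the stages were processed cannot be told apart from stage. Each difference is the mean blastocyst value minus the mean 8-cell value after taking log2(signal + 16), given with its standard error (SE), and adjusted p-values come from limma with Benjamini-Hochberg adjustment over all genes tested (or all probe sets tested, where a probe set is named). A call means an adjusted p under 0.05. A gene is read by its brightest probe set, and a probe set was tested if it lay above the 40th percentile of the array (signals of 28.3 to 35.7) on at least 4 of the 8 arrays. Whole embryos were measured, so fewer cells of a type and less RNA per cell cannot be told apart. Over the tested genes, correlations were 0.977 to 0.988 within a stage and 0.752 to 0.780 across stages. Markers of the trophectoderm, the outer layer, summed to 2997 to 3489 on the 8-cell arrays and to 73369 to 82518 on the blastocyst arrays, and the 8-cell markers Klf17 and Obox6 to 28741 to 36865 and 305 to 538. Primitive endoderm markers summed to 6914 to 10335 and 10812 to 11915, and epiblast markers to 9018 to 9767 and 7933 to 10321. Of these, Gata4, Gata6 and Pou5f1 were lower in blastocysts. Sox17, Pdgfra, Sox7, Nanog and Sox2 were higher, and Fgf4 overlapped. Of 9 measured markers of cumulus and granulosa cells, 3 were above the 40th percentile on every 8-cell array and 4 on every blastocyst array. Their sum was 6674 to 10404 and 580 to 676, most of the former from Amhr2 (6358 to 9881 in 8-cell embryos), while Has2, Ptx3, Inhba and Tnfaip6 reached at most 37.0 on any array. The 4 measured blood cell markers summed to 138 to 203 in 8-cell embryos and 79.0 to 156 in blastocysts. The part of other cells in the results was not tested.

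All 8 genes passed the filter, and 5 of the 8 were called, against 71.7% of the 13276 genes tested. Tet2, Mbd1 and Mbd2 rose (3 of 8, against 37.5% of all tested genes), and Tet3 and Apex1 fell (2 of 8, against 34.2%). Tet1, Mbd3 and Mbd4 did not pass the test. In the 5 called genes the values of the stages did not overlap, which held for 66.8% of all tested genes, and 4 of them changed at least 2-fold, as did 45.8% of all. These shares lie near those of all genes, some below and some above, and the median difference of the 8 genes was 0.095 against 0.020 for all genes tested. With mean values over all probe sets of a gene, 7 of the 8 were called, 3 higher and 4 lower. Scaled to the hybridisation spike-ins, the arrays gave 62.4% of all calls as higher against 52.3% on the deposited scale, the median difference of all genes moved to 0.26, and the calls of the 8 genes were the same in number and direction.

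**Figure D1:**
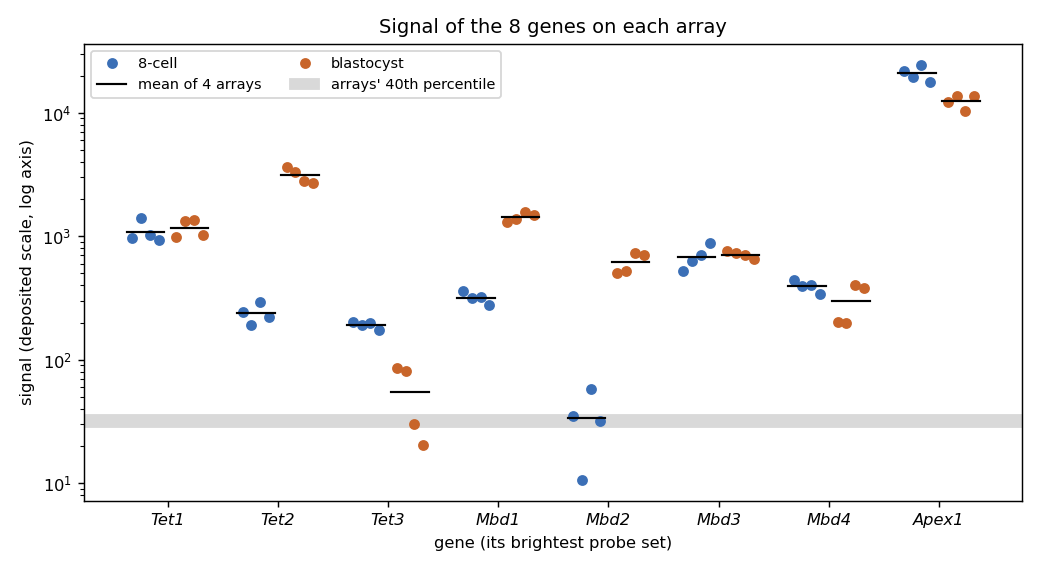
Signal of each gene's brightest probe set on each of the 8 arrays (log axis, deposited scale), with points for arrays, black lines for the mean of 4 arrays and a grey band for the range of the arrays' 40th percentiles. Tet2, Mbd1 and Mbd2 stand higher in all 4 blastocyst arrays, Tet3 and Apex1 lower, and the stages overlap for Tet1, Mbd3 and Mbd4.

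Tet2 showed the clearest change among the oxidising enzymes. Its brightest probe set read 245, 190, 295 and 220 on the 8-cell arrays and 3616, 3302, 2822 and 2705 on the blastocyst arrays. Every blastocyst value was far above every 8-cell value. The mean went from 238 ± 44.6 to 3111 ± 424 (SD, n = 4 each), 12.4-fold higher (log2 difference 3.63, SE 0.16, limma adjusted p = 8.53e-08). By size this was rank 488 among the 13276 genes. The other Tet2 probe set rose too, from 149, 209, 233 and 107 to 874, 869, 1006 and 675 (2.23, SE 0.23, limma adjusted p = 1.78e-05), a rise that was smaller on the log2 scale.

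Tet3 went the other way. Its only probe set read 200, 192, 197 and 175 in 8-cell embryos and 86.1, 81.5, 29.9 and 20.2 in blastocysts. The 8-cell arrays lay close together, while the blastocyst arrays fell into a higher pair (replicates 1 and 2) and a lower pair (replicates 3 and 4, under the 40th percentile of their arrays). The mean fell from 191 ± 11.2 to 54.4 ± 34.2 (log2 difference -1.70, SE 0.32, limma adjusted p = 0.00096). Since part of the blastocyst values are that low, the size depends on the added 16, and it was -2.04 with 1 added and -1.15 with 64 added.

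Tet1 gave no single answer, because its 4 probe sets split. The brightest, 1455425_at, read 973, 1417, 1032 and 936 in 8-cell embryos and 992, 1322, 1344 and 1026 in blastocysts, and the stages overlapped. Its log2 difference was 0.11 (SE 0.17, 95% confidence interval -0.28 to 0.50, limma adjusted p = 0.59 in the gene fit), which leaves out a change of the size seen in Tet2. Probe set 1429448_s_at read 811, 1024, 802 and 661 against 726, 773, 719 and 612, also with overlap (-0.20, SE 0.16, adjusted p = 0.283 over all probe sets in limma).

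The remaining Tet1 probe sets fell. Probe set 1419896_at read 548, 661, 898 and 469 in 8-cell embryos and 274, 225, 196 and 199 in blastocysts, with every blastocyst array below every 8-cell array (-1.43, SE 0.21, limma adjusted p = 0.000179). Probe set 1419897_at was dim, at 34.5, 49.8, 76.2 and 65.5 and then 4.22, 4.77, 23.8 and 3.72, all 4 blastocyst values under the 40th percentile (-1.56, SE 0.27, limma adjusted p = 0.000565). Its size depends on the added 16, with -2.84 for 1 added and -0.72 for 64. The platform annotation gives these 2 falling probe sets the same source sequence record, so they are not independent readings of the gene. With the mean of all 4 probe sets Tet1 was called lower (-0.77, SE 0.14, limma adjusted p = 0.000773). In the same arrays the Actb control probe sets differed between the 3′ and 5′ end by 2.42 ± 0.19 log2 units at the 8-cell stage and by 0.82 ± 0.11 at the blastocyst stage, and those of Gapdh by 2.32 ± 0.26 and 1.36 ± 0.11 (SD, n = 4 each). The part of this stage difference in RNA or amplification in the values of Tet1, or of any other gene described here, was not tested.

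**Figure D2:**
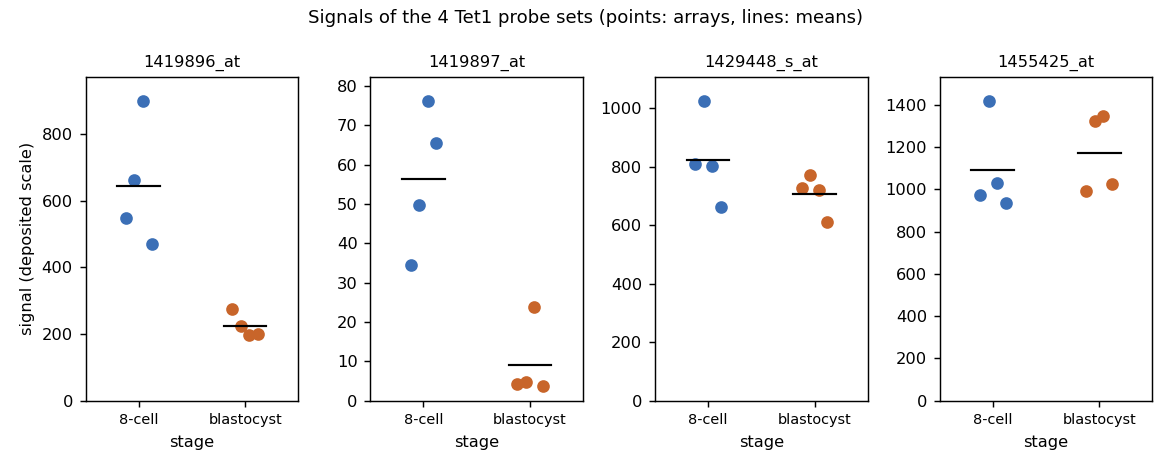
Signal of the 4 Tet1 probe sets on the 8 arrays (linear axes from 0, a separate scale for each), with points for arrays and lines for the mean of 4. The left pair of panels falls without overlap, from 644 to 223 and from 56.5 to 9.14 on average, while the right pair overlaps.

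Differences between genes within an array show unequal change without relying on the scaling of the arrays, though they do not compare the levels of the genes, whose probes differ. Tet2 minus Tet3 was 0.27, -0.018, 0.54 and 0.31 log2 units on the 8-cell arrays and 5.15, 5.09, 5.95 and 6.23 on the blastocyst arrays. The signals of these genes therefore moved apart by 5.33 log2 units between the stages, and by 4.55 to 5.76 over other added values and probe set choices. Tet1 (brightest probe set) minus Tet2 fell by 3.52, from 2.12 ± 0.47 to -1.40 ± 0.33, and Tet1 minus Tet3 rose by 1.81, from 2.40 ± 0.26 to 4.20 ± 0.79 (SD, n = 4 each). In each of these, all 4 blastocyst arrays lay on 1 side of all 4 8-cell arrays. Each had an exact two-sided permutation p of 0.0286, the smallest possible with this number of arrays, and also 0.0286 after Benjamini-Hochberg adjustment over the 4 pairs computed. Such separation is common in these data, as the stages did not overlap in 66.8% of all single genes tested. The share among other pairs of genes was not computed. With the mean of all Tet1 probe sets, Tet1 minus Tet3 rose by 0.93.

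**Figure D3:**
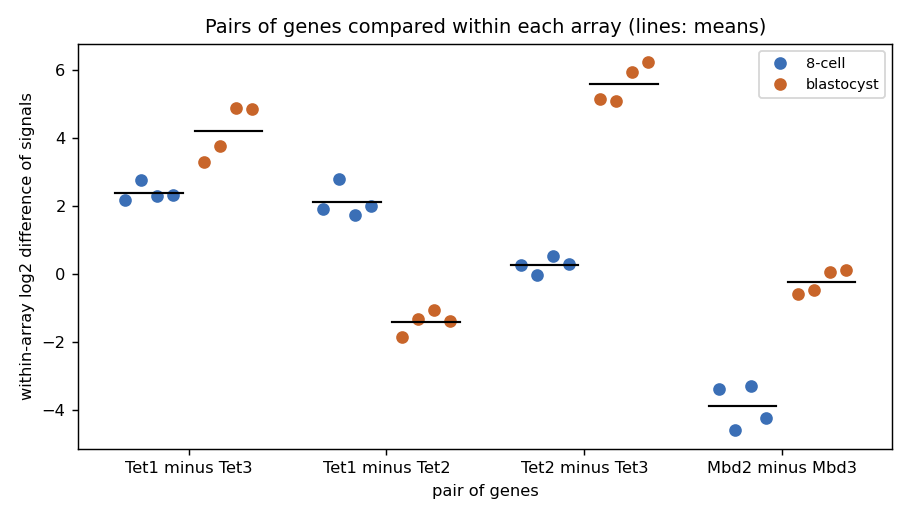
Within-array log2 differences of 4 pairs of genes on the log2(signal + 16) scale, with points for arrays and lines for the mean of 4 arrays of a stage. Only the shift between stages carries meaning, and it was 1.81, -3.52, 5.33 and 3.65 from left to right, with no overlap between stages. The stages also did not overlap in 66.8% of all single genes tested.

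Among the methyl-CpG readers, Mbd2 and Mbd1 rose. Mbd2 read 35.3, 10.6, 57.8 and 32.1 on the 8-cell arrays and 505, 519, 731 and 702 on the blastocyst arrays. In 8-cell embryos it sat near the level of the filter, with 3 of 4 arrays above it, and all blastocyst arrays were far higher. Its log2 difference was 3.73 (SE 0.29, limma adjusted p = 2.04e-06), 13.3-fold higher, and ranged from 2.80 with 64 added to 4.33 with 1 added. The other Mbd2 probe set went from 18.7, 13.3, 4.0 and 9.0 to 95.4, 88.0, 71.3 and 117 (2.01, SE 0.20, limma adjusted p = 1.28e-05), from values that were all under the filter level. The size of that rise is therefore not measured on the 8-cell side, and it ran from 1.06 with 64 added to 3.09 with 1 added. Mbd2 brings NuRD to methylated DNA, and each of its probe sets was above the filter level on every blastocyst array.

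Mbd1 was measured by 5 probe sets. The brightest, 1417968_a_at, read 359, 318, 322 and 277 in 8-cell embryos and 1306, 1383, 1571 and 1494 in blastocysts. The spread within each stage was small beside the gap (2.12, SE 0.12, limma adjusted p = 3.51e-07; 4.35-fold higher). Probe set 1437061_at rose more, from 42.7, 56.7, 40.8 and 3.30 to 624, 730, 581 and 561 (3.78, SE 0.36, limma adjusted p = 1.03e-05; 2.81 with 64 added and 4.58 with 1 added). It stands for the gene when probe sets that can match several transcripts are left out, and the gene's difference is then 3.78. Probe set 1430837_a_at went from 6.60, 14.6, 25.7 and 29.3 to 57.8, 57.7, 37.0 and 49.1 (0.96, SE 0.23, limma adjusted p = 0.00429). All 4 of its 8-cell values were under the 40th percentile, and the difference ran from 0.47 with 64 added to 1.52 with 1 added. The last 2, 1430838_x_at (3.30 to 44.4 over the 8 arrays) and 1453678_at (2.20 to 29.1), did not pass the filter and were not tested. The 3 tested probe sets of Mbd1 all rose, but 1430837_a_at passed the filter only through its blastocyst values, so its direction adds no support.

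Mbd3 showed no call. It read 521, 627, 700 and 878 in 8-cell embryos and 757, 729, 705 and 650 in blastocysts, and the blastocyst values lay within the range of the 8-cell values. The log2 difference was 0.081 (SE 0.16, limma adjusted p = 0.672) with a 95% confidence interval of -0.28 to 0.44, and its sign turned with quantile normalization (-0.16) and without the first 8-cell replicate (-0.037). Set against its alternative partner in NuRD, Mbd2 minus Mbd3 moved from -3.87 ± 0.64 to -0.22 ± 0.35 within arrays, a shift of 3.65 (SD, n = 4 each; exact permutation p = 0.0286, the smallest possible, adjusted p = 0.0286). That shift ran from 2.72 to 4.25 over other added values and probe set choices.

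Mbd4, the glycosylase of the family, was not called. Its brightest probe set read 440, 394, 405 and 341 in 8-cell embryos. In blastocysts replicates 1 and 2 were at 202 and 200, and replicates 3 and 4 at 406 and 378, within the 8-cell range. By their brightest probe sets, Tet2, Tet3, Mbd1, Mbd2 and Mbd3 also kept these pairs of blastocyst arrays apart, in either direction, while Tet1 and Apex1 did not. Whether the blastocyst arrays form 2 pairs was not tested. The stage difference of Mbd4 was -0.46 (SE 0.24, 95% confidence interval -1.0 to 0.082, limma adjusted p = 0.113). It passed the threshold with quantile normalization (-0.72, adjusted p = 0.0153), with the mean of its probe sets (-0.50, adjusted p = 0.0178) and without the third blastocyst replicate (-0.63, adjusted p = 0.0375), and was -0.20 with spike-in scaling and -0.31 without the second blastocyst replicate. Probe set 1457708_at fell from 208, 277, 133 and 109 to 110, 65.4, 91.9 and 82.9, overlapping by 1 pair of arrays (-0.87, SE 0.27, limma adjusted p = 0.0159; 0.0719 with spike-in scaling). Probe set 1441079_at was dim and close to level, with 60.8 to 68.6 in 8-cell embryos and 41.8 to 72.3 in blastocysts (-0.17, SE 0.15, limma adjusted p = 0.351).

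Apex1 encodes the main nuclease that cuts DNA at sites from which a glycosylase has removed the base. It was bright at both stages, at 21699, 19383, 24517 and 17800 in 8-cell embryos and 12183, 13593, 10269 and 13585 in blastocysts. All blastocyst arrays were below all 8-cell arrays, and the mean went from 20850 ± 2922 to 12407 ± 1572 (-0.75, SE 0.15, limma adjusted p = 0.00125; 1.68-fold lower). Its other probe sets fell alike, with differences of -0.61 (SE 0.12, limma adjusted p = 0.00147) and -0.58 (SE 0.14, limma adjusted p = 0.00444). This small fall is sensitive to scaling. With spike-in scaling the gene's difference was -0.48 (adjusted p = 0.0374), and in the fit of all probe sets none of the 3 passed (adjusted p = 0.0514 to 0.208).

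Over all 21 probe sets of the 8 genes, 19 were tested, and 14 of the 19 were called, against 66.4% of the 28229 probe sets tested. Of these, 7 were higher (33.6% of all tested) and 7 lower (32.8%), and 5 were not called. In 13 of the 19 the stages did not overlap, as in 61.2% of all tested probe sets. Tet1 1419897_at, Mbd1 1430837_a_at and Mbd2 1425803_a_at are among these called and non-overlapping probe sets. Each passed the filter only through the stage where it was higher, so its call is no separate evidence. No gene of the 8 had probe sets called in opposite directions, which occurred in 687 of the 6005 genes with several tested probe sets. Tet1 and Mbd4 had called and uncalled probe sets side by side, as did 2740 of these genes.

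**Figure D4:**
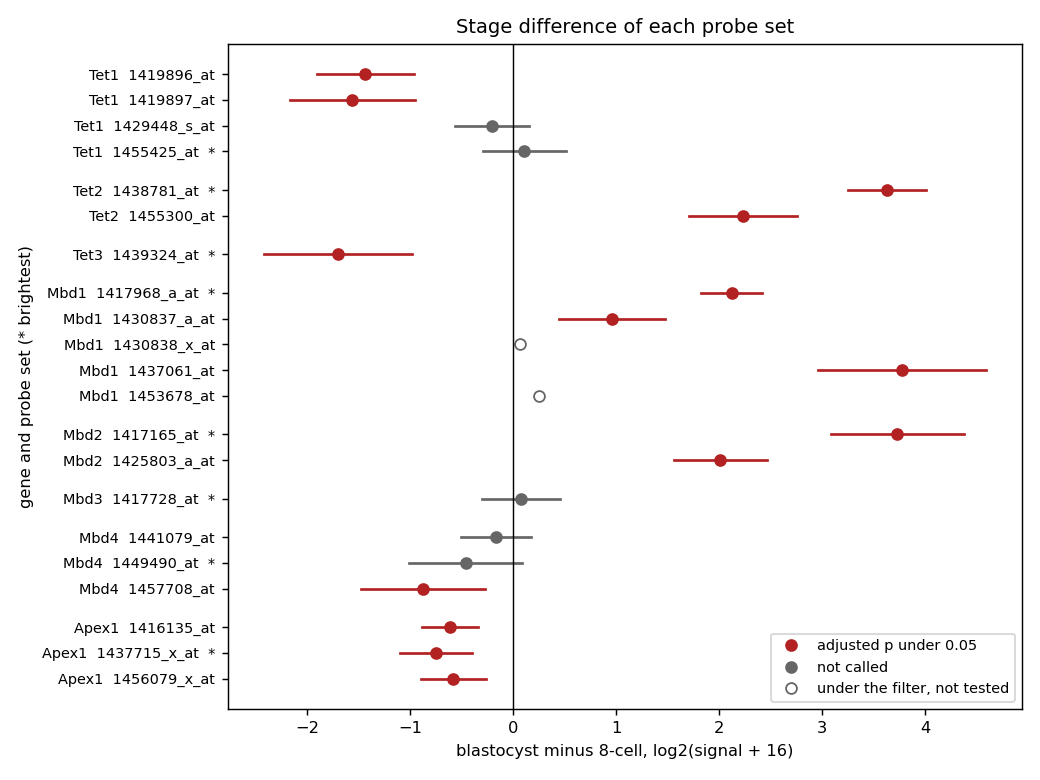
Blastocyst minus 8-cell difference on the log2(signal + 16) scale for each of the 21 probe sets, with 95% confidence intervals from limma. Red marks the 14 called probe sets, grey the 5 not called and open circles the 2 under the filter, and the Tet2, Mbd1 and Mbd2 probe sets lie to the right of 0 while those of Tet3 and Apex1 lie to the left.

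The pattern of each TET gene over the 8 arrays was set against those of all other tested genes, each centred on its own mean, by the root mean square difference in log2 units. Genes picked this way share the stage difference by choice, so their differences are given with no test. Closest to Tet2 were Insr, the insulin receptor gene (0.14), Phkb, a phosphorylase kinase subunit gene (0.15), and Tubb5, a beta tubulin gene (0.17), with differences of 3.62, 3.58 and 3.42. Insr and Phkb were dim in 8-cell embryos, at 19.98 and 32.8 on average, and averaging its probe sets brought Insr to 1.51. Closest to Tet3 were Tbrg3 (0.21), the adaptor subunit gene Ap3b2 (0.22) and the transporter gene Slco5a1 (0.22), with differences of -1.72, -1.74 and -1.96. These 3 were dim in blastocysts, at 15.3, 43.9 and 17.2 on average, and gave -0.88, -1.10 and -1.09 with 64 added. Closest to the brightest Tet1 probe set were Traf3ip2 (0.056), Nfx1 (0.093) and Ttc19 (0.12), with differences of 0.012, 0.076 and 0.055. Averaged over probe sets, Nfx1 came to 0.68 and Ttc19 to 0.53.

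Among genes that supply or steer the TET enzymes, 18 were tested, of which 10 rose, 6 fell and 2 did not pass (88.9% called against 71.7% of all tested genes), with a median difference of 0.78. This balance depends on the processing. With spike-in scaling 11 rose and 2 fell, with the mean of all probe sets 8 rose and 7 fell (median 0.43), and with the _x_at, _s_at and _a_at probe sets left out 7 of 15 rose and 7 fell, with a median of -0.28. The mitochondrial isocitrate dehydrogenase genes Idh3a and Idh2, whose enzymes make oxoglutarate, rose from 849 ± 138 to 11999 ± 982 (3.81, SE 0.14) and from 596 ± 42.3 to 5355 ± 516 (3.13, SE 0.12). Both depend on the probe set. With probe sets of the types _x_at, _s_at and _a_at left out, Idh3a gave 1.96 and Idh2 -1.51, a call in the opposite direction. Gadd45g, a stress gene linked to demethylation, rose by 2.58 (SE 0.51), and Ogt, encoding the sugar transferase that binds TET proteins, by 0.75 (SE 0.17, but 0.31 and not called with the mean of its probe sets). Dppa3, whose product shields methylated DNA from TET3 in the zygote, fell from 23742 ± 2364 to 11790 ± 1994 (-1.02, SE 0.15). Apobec3, a cytosine deaminase gene, and Dcaf1, a ubiquitin ligase adaptor gene, fell by 1.38 (SE 0.37) and 0.78 (SE 0.12), Dcaf1 not with spike-in scaling (-0.51, adjusted p = 0.062).

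In base excision repair, where Apex1 acts, 11 of 21 tested genes rose, 7 fell and 3 did not pass (85.7% called against 71.7% of all tested genes, median 0.45). With spike-in scaling 11 rose and 3 fell (median 0.72). The uracil glycosylase gene Ung fell from 8482 ± 170 to 2320 ± 215 (-1.87, SE 0.11), the break sensor gene Parp1 from 6876 ± 722 to 2239 ± 229 (-1.61, SE 0.13), Aptx, which cleans DNA ends, by 1.10 (SE 0.13) and the scaffold gene Xrcc1 by 0.69 (SE 0.11). Xrcc1 did not pass with spike-in scaling (-0.43, adjusted p = 0.0729). The replicative ligase gene Lig1 rose from 1096 ± 146 to 7253 ± 810 (2.71, SE 0.14), the end-processing gene Tdp1 by 2.25 (SE 0.18) and the glycosylase gene Neil1 from 155 ± 17.3 to 723 ± 43.9 (2.12, SE 0.12). All these calls had limma adjusted p of 0.000263 or less. Thymine DNA glycosylase, which removes TET products, was not analysed here because its probe sets carry several gene symbols.

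Partners of the MBD proteins included 18 tested genes, of which 9 fell, 4 rose and 5 did not pass (72.2% called against 71.7% of all tested genes, median -0.26). With spike-in scaling 5 fell and 4 rose (median -0.028). The NuRD subunit genes Mta2, Cdk2ap1 and Hdac1 fell most, from 4896 ± 1066 to 1036 ± 45.7 (-2.20, SE 0.16), from 22254 ± 2760 to 5984 ± 648 (-1.89, SE 0.14) and from 9687 ± 678 to 3123 ± 137 (-1.63, SE 0.11). Mta1, a relative of Mta2, rose by 0.86 (SE 0.18) and Chd3 by 0.64 (SE 0.12), but Mta1 was not called with the mean of its probe sets (0.22). Setdb1, encoding the methyltransferase that works with MBD1, rose by 0.69 (SE 0.10), and its sign turned without the _x_at, _s_at and _a_at probe sets (-0.26, adjusted p = 0.125). For Chd4, the motor subunit of NuRD, the brightest probe set gave 0.42 (SE 0.15, limma adjusted p = 0.0266). Its value was -1.22 with the mean of its probe sets and -2.77 without those types, and the call was lost with the replicate block (0.0591) and without 8-cell replicate 2 or blastocyst replicates 1, 2 or 4 (adjusted p = 0.051 to 0.0628), so no direction is given for it.

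The list of other methylated DNA readers and MBD relatives counted 3 higher, 7 lower and 3 not called of 13 tested (76.9% called against 71.7% of all tested genes, median -0.47). With spike-in scaling 4 rose and 4 fell (median -0.21), and with the replicate block 4 rose and 5 fell. The list also holds genes that are neither, among them Kdm2b and Cxxc1, both counted lower. Zbtb4, also counted lower (60.2 ± 10.8 and 19.7 ± 4.62), passed the filter only through its 8-cell values, so its call adds no support. Mbd3l2, a relative of Mbd3 without the DNA-binding domain, fell from 1352 ± 244 to 72.4 ± 20.7 (-3.96, SE 0.21, limma adjusted p = 1.96e-07). Setdb2, a histone methyltransferase gene with an MBD, and Kdm2b, which binds unmethylated CpG, fell by 1.71 (SE 0.13) and 1.69 (SE 0.13). Uhrf2, a reader of hydroxymethylated DNA, rose from 112 ± 26.7 to 317 ± 59.4 (1.39, SE 0.20), the reader gene Zbtb33 by 0.91 (SE 0.20) and the MBD relative Mbd6 by 0.65 (SE 0.17). Averaged over probe sets, Zbtb33 came to -0.034 and Uhrf2 to 0.63.

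The enzymes that add the mark were on the list of DNA methyltransferases and UHRF1, of which 3 of 5 rose, 1 fell and 1 did not pass (80% called, against 71.7% of all tested genes). With the mean of all probe sets 3 rose and none fell. Dnmt3l, Uhrf1 and Dnmt3b rose by 2.33 (SE 0.12), 2.30 (SE 0.12) and 1.12 (SE 0.13), Dnmt3a fell by 1.32 (SE 0.24, but 0.091 with the mean of its probe sets), and the maintenance enzyme gene Dnmt1 was at 1086 ± 174 and 1169 ± 142 (0.11, SE 0.15, limma adjusted p = 0.531).

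**Figure D5:**
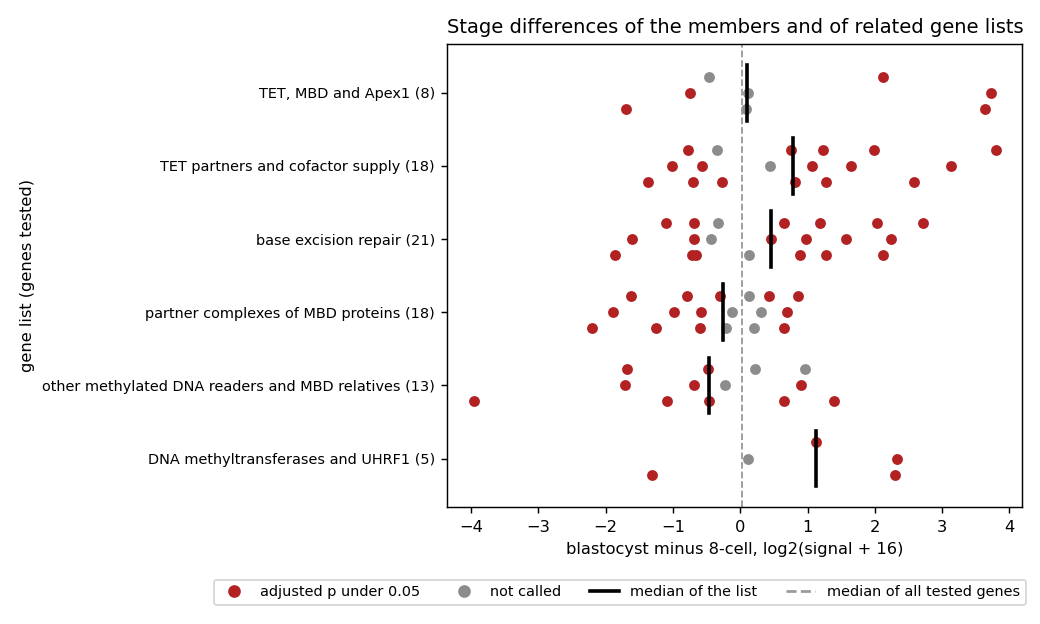
Blastocyst minus 8-cell difference on the log2(signal + 16) scale for each tested gene of the 8 and of 5 related lists (red called, grey not called), with black bars for list medians and a dashed line for the median of all tested genes (0.020). The medians run from -0.47 for the other readers to 1.12 for the DNA methyltransferases and UHRF1, and each list holds genes that rose and genes that fell.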

How the data were processed

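The authors deposited a linear intensity for each of 45101 probe sets on 8 arrays. Per the labels' protocols, RNA from a PicoPure kit was amplified by a small-sample labelling assay and biotin-labelled. The labels used here do not name the software behind these values. In the values themselves, the mean after removal of the outer 2% is close to 500 on each array. It was 499.92 to 501.23 on the 8-cell arrays and 499.84 to 499.85 on the blastocyst arrays. The 8-cell values carry 1 decimal and the blastocyst values more. Values became log2(signal + 16). Of the probe sets, 64 controls were left out of tests. In the platform annotation 34958 had 1 gene symbol (13 of the controls among them) and 932 several, and 9160 that are no controls are unnamed here. Gene IDs looked up in RefSeq's GRCm38.p6 table changed 0 symbols. Stages were compared with limma 3.58.1 in R 4.3.3 (lmFit, eBayes, no covariates, 4 against 4 arrays) over 13276 genes, and over 28229 probe sets. The method was tested on simulated data. Members and lists were chosen with earlier results of these data known. Named genes are the 8 members, the 3 largest rises and falls called in each list, 14 fixed genes and the 3 genes most like each TET gene. Same-numbered arrays of the stages did not deviate together (correlations of -0.035 to -0.024), and no arrays held identical values.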

Additional observations from a re-analysis of the deposited data

Results flagged for a closer look

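In 50 groups of 4 values (each probe set and each pair of genes at each stage), 2 had an array far from the other three by Dixon's ratio of gap to range, whose critical value is 0.829, and chance flags about 5% of such groups. The blastocyst values of Tet1 probe set 1419897_at (ratio 0.927) were 4.22, 4.77 and 3.72, with replicate 3 at 23.8. The blastocyst values of Mbd1 probe set 1453678_at (ratio 0.855) were 13.4, 13.3 and 15.2, with replicate 2 at 28.9. All 8 values lie under the 40th percentile of their array, except replicate 2 of the Mbd1 probe set.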

How the results depend on the processing

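Over 20 alternative settings, Tet2, Tet3, Mbd1, Mbd2 and Apex1 kept their direction and their call in the gene fit, and 153 of 160 values of the 8 genes kept their direction and side of the threshold. Of 338 values of the member probe sets 326 did so, and of 811 values of the other named genes 783. With quantile normalization Tet1 gave -0.053, Mbd3 -0.16, Dnmt1 -0.058, Traf3ip2 -0.15, Nfx1 -0.12 and Ttc19 -0.22. With the mean of all probe sets Tet1 gave -0.77, Chd4 -1.22, Zbtb33 -0.034, Dnmt3a 0.091 and Dnmt1 -0.11. Without probe sets ending in _x_at, _s_at or _a_at, Idh2 gave -1.51, Chd4 -2.77 and Setdb1 -0.26, and 2 DNA methyltransferase genes were called of the 2 then tested. With spike-in scaling Tet1 probe set 1429448_s_at gave 0.058 and Mbd4 probe set 1441079_at 0.044. The cause of these turns was not tested. Leaving out single arrays gave -0.037 to 0.21 for Mbd3, -0.059 to 0.13 for Traf3ip2, -0.054 to 0.17 for Ttc19, and 1.58 to 2.11 for Tet1 minus Tet3, which without any 1 of the 8-cell arrays had an exact permutation p of 0.0571. The replicate block gave 9276 called genes and 5 called members. It changed the call of Chd4 (0.42, adjusted p = 0.0591) and of none of the 8 genes. The number of arrays and signals near the level of the filter (Tet3 in blastocysts, Mbd2 in 8-cell embryos) limit the sizes.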
